A study of Mus musculus with 10 samples.

Results

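Alpha- and beta-tubulin pair into the heterodimers from which microtubules are built, and mammals make each of them from several genes, the isotypes. The 10 isotypes described here were the rows of platelet RNA-seq tables whose gene symbol was Tubb1, Tubb2a, Tubb4b, Tubb5 or Tubb6 (beta class) or Tuba4a, Tuba8, Tuba1a, Tuba1b or Tuba1c (alpha class). They were 10 of 53819 gene symbols, and all 10 passed the filter on low counts. The mice were labelled P7, read here as postnatal day 7, or adult, with 5 libraries for each age. The P7 libraries carry the letters A, B, C, E and I and the adult libraries the letters A, B, C, G and H. No treatment, mutation or transgene is named in the labels, and the sources used here give no strain, sex or age of the adults in days. Nothing in the labels tells separate animals from pools or repeated draws, so p-values measure only how far these samples spread, and that spread may be technical.

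A resting platelet keeps its disc shape through a marginal band, a coil of microtubules under the membrane. The band is assembled from tubulin made in the megakaryocyte, whose microtubules also drive the extension of proplatelets. Tubb1 encodes beta-1 tubulin, an isotype nearly restricted to megakaryocytes and platelets, and mice that lack it have few, spherical platelets. Tuba4a encodes an alpha isotype of the same band. Isotypes differ most in their C-terminal tails, acidic stretches that project from the microtubule, carry chains of added glutamates and, in many alpha isotypes, end in a tyrosine that can be removed and put back.

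The last 20 codons before the stop codon are shown for 5 isotypes, 3 of the beta and 2 of the alpha class, since tubulin isotypes are known to differ most there. They were read from GENCODE M21 transcripts (GRCm38) on the coding strand, 5′ to 3′, and capitals mark codons for glutamate (GAA or GAG).
Tubb1: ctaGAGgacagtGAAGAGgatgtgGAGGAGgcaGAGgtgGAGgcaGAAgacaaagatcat
Tubb2a: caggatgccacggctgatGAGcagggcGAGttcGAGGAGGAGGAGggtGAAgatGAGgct
Tubb5: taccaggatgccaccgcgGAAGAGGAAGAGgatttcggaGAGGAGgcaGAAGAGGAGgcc
Tuba4a: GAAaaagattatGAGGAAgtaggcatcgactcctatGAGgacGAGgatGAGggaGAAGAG
Tuba8: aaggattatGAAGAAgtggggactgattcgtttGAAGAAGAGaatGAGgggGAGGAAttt
These stretches lie within 1 exon each, at chr2:174457820-174457879 (plus strand) for Tubb1, chr13:34074471-34074530 (minus) for Tubb2a, chr17:35834985-35835044 (minus) for Tubb5, chr1:75215625-75215684 (minus) for Tuba4a and chr6:121226017-121226076 (plus) for Tuba8. Tubb1 and Tubb2a each have 8 glutamate codons in this stretch, while Tubb5 has 9. Tuba4a and Tuba8 also have 8 each. The last codon encodes glutamate in Tuba4a and phenylalanine in Tuba8. Over the whole coding sequence Tubb1 was the most distant beta member, with 73.1% to 76.0% of aligned bases identical to the other 4. Tuba1a and Tuba1b were the closest pair, at 98.3%, and Tuba8 matched the other alpha members at 79.1% to 81.0%.

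Total counts ran from 19431863 to 25029931 per P7 library and from 19541997 to 23291269 per adult library. The 14 platelet markers were all tested and summed to 60584 to 82363 CPM at P7, against 59615 to 88997 CPM in adults, with 5 called higher (among them Gp9 and Gp1bb) and 4 lower (among them Ppbp, P2ry12 and Selp), where CPM is the library-scaled count after TMM normalization between libraries. No pair of libraries agreed within sampling noise. P7 I stood apart from the other P7 libraries, with a chi-square per degree of freedom of 130.6 to 307.6 against them over genes, while the pairs among those 4 gave 56.4 to 112.1. P7 I was about as far from adult H (218.8) and adult G (231.3) as from P7 A (225.3), and further from the other adult libraries. Adult G and H gave 84.3 with each other, against 145.7 to 214.1 with adult A, B or C. What sets these libraries apart was not tested. Fold changes without P7 I are given for Tubb2a, Tuba1a and Tuba8.

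Tubb1 was by far the most abundant isotype at both ages. The ranking below it differed between P7 and adult platelets on the length scale used, and parts of that difference depend on the scale. Levels can be set beside each other only per length, here as CPM per kilobase of a single annotated transcript per gene. On that scale Tubb1 averaged 3692 ± 725 at P7, against 3210 ± 709 in adults (SD, n = 5 each). At P7 Tuba4a followed with 342 ± 34.7, then Tubb2a with 265 ± 71.1, and their ranges of 305 to 376 and 189 to 383 overlapped. Adult libraries had the reverse order, Tubb2a at 421 ± 136 and Tuba4a at 195 ± 48.2, with ranges of 320 to 582 and 131 to 264 that did not overlap. Tuba4a was above Tubb2a per kilobase in 4 of 5 P7 libraries (not in P7 C) and in 0 of 5 adult libraries. The transcripts used have 2840 bases for Tuba4a and 1610 for Tubb2a. All annotated exons together hold 3701 bases for Tuba4a and 1610 for Tubb2a. The order of Tuba4a and Tubb2a at P7 thus depends on the length chosen, while their adult order does not. Whether their order changed with age therefore depends on it too. Tubb4b and Tuba1a came next at both ages, with 139 ± 11.8 and 79.0 ± 26.8 CPM per kilobase at P7 and 101 ± 14.3 and 39.6 ± 7.23 in adults.

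Some low isotypes also changed places on this scale. At P7 Tuba1c had 15.2 ± 2.29 CPM per kilobase and Tuba8 13.8 ± 3.48, with overlapping ranges. Tuba1c has 1982 bases in the transcript used and 2287 in all annotated exons, against 2263 for Tuba8 on either count. The P7 order of Tuba1c and Tuba8 thus also depends on the length chosen, and so does their change of place with age. In adults Tuba8 had 27.9 ± 14.3, overlapping Tuba1a above it, and Tuba1c 4.54 ± 0.899, overlapping Tubb6 below it. Tubb5 was at 6.71 ± 1.21 at P7 and 2.602 ± 1.25 in adults, Tubb6 at 2.65 ± 0.672 and 3.46 ± 1.30, and Tuba1b was lowest at both ages, at 1.58 ± 0.778 and 0.645 ± 0.128 (P7 and adult for each).

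**Figure D1:**
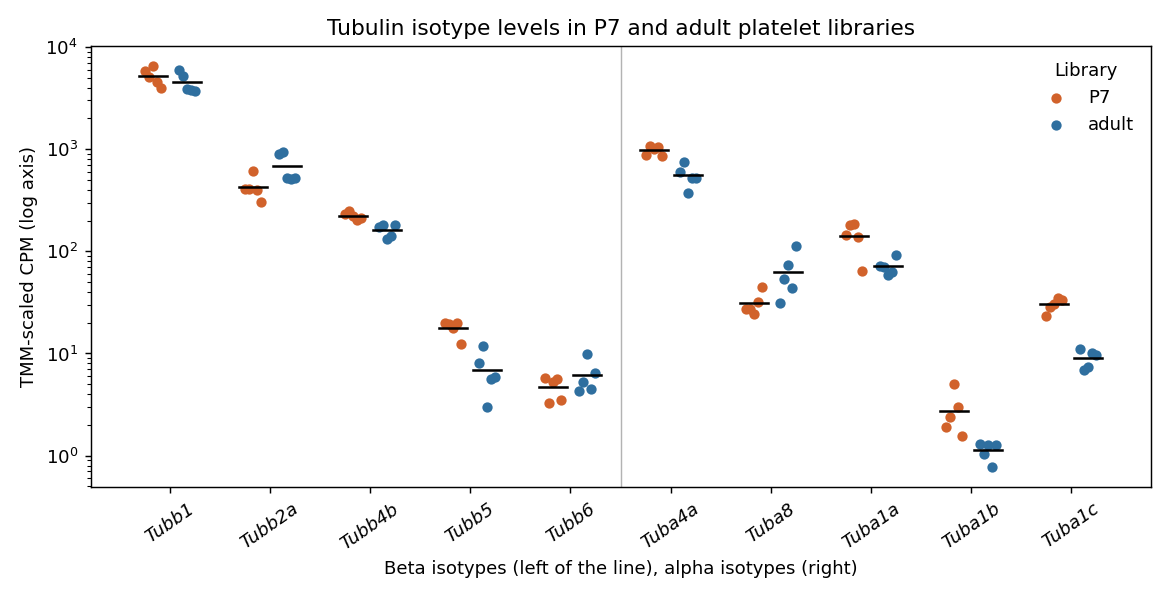
TMM-scaled CPM (log axis) of the 10 isotypes in each library, P7 points left of adult points, with a black line at the mean of 5 libraries. Tubb1 lies between 3741 and 6518 CPM in all 10 libraries, while the P7 Tuba1c points, 23.4 to 34.9, all lie above the adult points, 6.92 to 10.98.

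Between the ages, 6 isotypes rose at P7 (Tubb4b, Tubb5, Tuba4a, Tuba1a, Tuba1b and Tuba1c), 2 fell (Tubb2a and Tuba8), and Tubb1 and Tubb6 did not pass the test, which was edgeR's quasi-likelihood test at a Benjamini-Hochberg adjusted p under 0.05. Over all 8198 genes tested, 27.7% were called, 13.8% as higher and 13.9% as lower. The median log2 fold change, P7 over adult, was 0.64 over the 10 isotypes and 0.05 over all genes tested. The levels of 5 of the 10 isotypes did not overlap between the ages (Tubb4b, Tubb5, Tuba4a, Tuba1b and Tuba1c), against 19.8% of all genes tested. Of the alpha members, 4 rose and 1 fell, with a median of 1.00. Of the beta members, 2 rose and 1 fell, with a median of 0.20. With each library left out in turn, 5 or 6 isotypes were called higher and 1 or 2 lower. Fold change rose with GC content over genes (Spearman's rho 0.28). With that trend removed, 4 isotypes were called higher and 2 lower. The median was then 0.37 over the isotypes and -0.04 over all genes tested. In bulk RNA such as this, fewer cells of a type and less RNA per cell cannot be told apart.

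**Figure D2:**
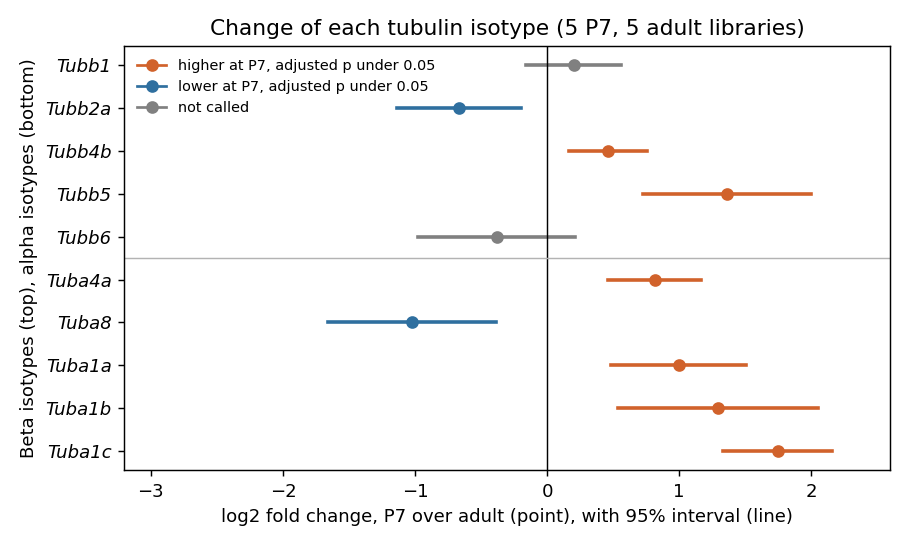
Log2 fold change, P7 over adult, of each isotype (point) with its 95% interval (line) from edgeR's fit to 5 P7 and 5 adult libraries. Intervals of 8 isotypes exclude 0, and those of Tubb1 (-0.16 to 0.56) and Tubb6 (-0.97 to 0.21) include it.

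Tubb1 had 5841, 5120, 6518, 4508 and 3966 CPM in P7 A, B, C, E and I, against 5916, 5224, 3854, 3831 and 3741 CPM in adult A, B, C, G and H. The groups overlapped widely, with adult A above all P7 libraries but P7 C. Its log2 fold change was 0.20 ± 0.17 (SE, edgeR adjusted p = 0.41), with a 95% interval of -0.16 to 0.56. It was -0.10 (adjusted p = 0.70) when the trend of fold change with GC content over genes was removed.

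Tubb2a, a beta isotype expressed in many tissues and abundant in brain, fell. It had 412, 404, 616, 398 and 304 CPM in the P7 libraries in the same order, against 897, 937, 518, 515 and 520 CPM in the adult libraries. P7 C lay above the 3 adult libraries C, G and H, and adult A and B lay well above the rest. The log2 fold change was -0.67 ± 0.22 (SE, edgeR adjusted p = 0.0359). The call was not kept when P7 A (-0.67, adjusted p = 0.0677), P7 B (-0.65, 0.0733), P7 E (-0.67, 0.0720), P7 I (-0.57, 0.0736), adult A (-0.56, 0.0897) or adult B (-0.54, 0.0892) was left out. In the reference, 43.2% of its 75-base windows also occur in Tubb2b or the pseudogene Tubb2a-ps2, so reads could be split between these rows. Tubb2b, whose coding sequence is 96.5% identical, also fell, with 17.4 ± 4.12 CPM at P7, against 33.0 ± 7.03 CPM in adults. Tubb2a and Tubb2b summed, a setting chosen after seeing the data, gave -0.68 ± 0.22 (edgeR adjusted p = 0.0306).

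The ratio of Tubb1 to Tubb2a separated the ages, although the groups overlapped in the level of each. Counts of Tubb1 per count of Tubb2a were 14.2, 12.7, 10.6, 11.3 and 13.0 in the P7 libraries, against 6.59, 5.57, 7.44, 7.44 and 7.20 in the adult libraries. All P7 libraries lay above all adult libraries, with means of 12.4 ± 1.43 at P7, against 6.85 ± 0.793 in adults (SD, n = 5 each).

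**Figure D3:**
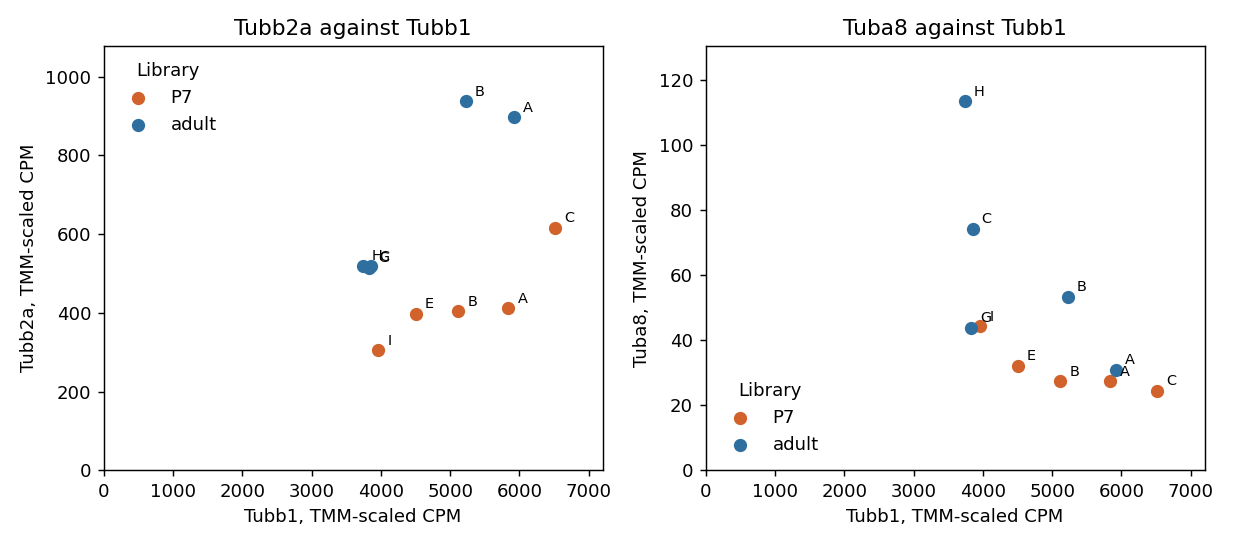
Tubb2a (left) and Tuba8 (right) against Tubb1 in each library, all in TMM-scaled CPM from 0, with the replicate letter beside each point. Tubb2a rises with Tubb1 over the 5 P7 libraries and is highest in adult A and B, where adult Tubb1 is highest, with adult points above P7 points of like Tubb1. Tuba8 is lowest in P7 C, the library with most Tubb1, and highest in adult H, the one with least.

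Tubb4b, a beta isotype made in most tissues and prominent in cilia, rose modestly. It had 231, 249, 220, 201 and 210 CPM at P7, against 172, 181, 132, 142 and 181 CPM in adults. Every P7 library was above every adult library. On the log2 scale the difference was 0.46 ± 0.14 (SE, edgeR adjusted p = 0.0221), and it was 0.16 (adjusted p = 0.47) with the GC trend removed. The call was also lost without P7 A (0.43, adjusted p = 0.0627), P7 B (0.42, 0.0616), adult C (0.39, 0.0567) or adult G (0.39, 0.0666). In the reference, 37.8% of its 75-base windows recur in Tubb4b-ps1, Tubb4b-ps2 or Gm16165.

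Tubb5, the beta isotype common in dividing cells, rose 2.58-fold in edgeR's fit. It had 19.8, 19.3, 17.6, 19.97 and 12.3 CPM at P7, against 8.11, 11.9, 3.02, 5.61 and 5.85 CPM in adults. The groups did not overlap, but P7 I, the lowest at its age, was close to adult B, the highest at its own. Its log2 fold change was 1.37 ± 0.30 (SE, edgeR adjusted p = 0.00373). Tubb6, another widely made beta isotype, had 3.31 to 5.75 CPM at P7 and overlapped the adult range of 4.30 to 9.90 CPM, in which adult C was highest. Its log2 fold change of -0.38 ± 0.28 did not pass the test (edgeR adjusted p = 0.34), and it was -0.15 without adult C and -0.75 (adjusted p = 0.0529) with the GC trend removed.

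Tuba4a, the main alpha isotype of these libraries, rose 1.76-fold. It had 868, 1067, 1001, 1055 and 866 CPM at P7, against 601, 749, 373, 523 and 517 CPM in adults. All P7 libraries were above all adult libraries, of which adult C was lowest. The log2 fold change was 0.81 ± 0.17 (SE, edgeR adjusted p = 0.00231), and the call was kept under all 19 alternative settings. Stk16, a kinase gene on the opposite strand, overlaps 37.3% of the annotated exon bases of Tuba4a, and no strand setting of the counting was given in the sources used here. Its own row held 87 to 131 counts at P7 and 59 to 135 in adults, at most 1.76% of the Tuba4a count of the same library. Reads matching both genes may have been left out of both rows, so the Stk16 row cannot size the effect of the overlap. Smaller opposite-strand overlaps exist for Tuba8 (Gm15856, 16.3% of exon bases, with 0 to 8 counts per library) and Tubb4b (Fam166a, 5.8%).

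Tuba8, a divergent alpha isotype known from testis and muscle, fell. It had 27.4, 27.3, 24.5, 32.2 and 44.3 CPM at P7, against 31.0, 53.4, 74.3, 43.9 and 114 CPM in adults. The adult libraries spread widely, adult H being highest, and adult A and G lay among the P7 libraries. The log2 fold change was -1.02 ± 0.30 (SE, edgeR adjusted p = 0.0199). It was -0.95 (adjusted p = 0.0523) without P7 C and -1.19 (adjusted p = 0.0121) without P7 I. Without adult H it was -0.71 (adjusted p = 0.0488), the smallest fall under any alternative setting. Tuba8 thus moved opposite to the other 4 alpha members. Counts of Tuba4a per count of Tuba8 were 31.7, 39.0, 40.9, 32.8 and 19.5 at P7, against 19.4, 14.02, 5.02, 11.9 and 4.56 in adults, with P7 I just above adult A.

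The Tuba1 genes, the alpha isotypes of most tissues, were 1.995- to 3.36-fold higher. Tuba1a, best known from developing neurons, had 145, 180, 185, 139 and 64.2 CPM at P7, against 72.1, 70.4, 58.9, 62.9 and 92.7 CPM in adults. P7 I lay inside the adult range, while the other P7 libraries lay above all adult ones. The log2 fold change was 1.00 ± 0.24 (SE, edgeR adjusted p = 0.00669), and it was 1.18 (adjusted p = 2.42e-04) without P7 I. Tuba1c had 23.4, 28.5, 30.8, 34.9 and 33.5 CPM at P7, against 10.98, 6.92, 7.31, 10.02 and 9.75 CPM in adults. Every P7 library held more than any adult library, and the log2 fold change of 1.75 ± 0.19 (SE, edgeR adjusted p = 2.76e-05) was the largest rise among the 10 isotypes. Its 19 alternative settings all kept the call.

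Tuba1b was close to the lower end of what was tested, with 1.89, 2.38, 4.98, 2.96 and 1.55 CPM at P7 (34 to 124 counts), against 1.29, 1.03, 1.27, 0.771 and 1.26 CPM in adults (18 to 27 counts). The groups did not overlap. The fitted log2 fold change was 1.29 ± 0.36 (SE, edgeR adjusted p = 0.0141), and it was 0.96 (adjusted p = 0.0561) without P7 C, the highest library, and with the GC trend removed it was 0.95 (adjusted p = 0.0507). Of its 75-base windows 76% recur in other genes or pseudogenes, as do 56.3% of those of Tuba1a and 56.7% of those of Tuba1c. These shares leave out genes whose exons overlap the isotype on the genome, such as Stk16, Gm15856 and Gm49450. On that count Tubb1, Tubb5, Tubb6, Tuba4a and Tuba8 share none. The authors' treatment of reads with several matches was not given in the sources used here, and the split among the Tuba1 genes is uncertain. Tuba1a and Tuba1b also overlap the gene model Gm49450 on the same strand, over 26.2% and 22.7% of their exon bases. Summed, a setting chosen after seeing the data, Tuba1a, Tuba1b and Tuba1c averaged 175 CPM at P7 (SD 47.8, n = 5), against 81.5 CPM in adults (SD 13.8, n = 5). P7 I, at 99.2 CPM, lay below adult H, at 104 CPM, and the sum had a log2 fold change of 1.11 ± 0.20 (edgeR adjusted p = 0.00111).

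Summed markers of other cell types differed between the ages in both directions beside these isotype changes. The 12 markers of proliferating cells summed to 7.53 to 16.0 CPM at P7, against 1.05 to 2.91 CPM in adults, and of the 3 tested 2 rose. The 8 B cell markers summed to 8.09 to 22.9 CPM at P7, against 3.27 to 5.87 CPM in adults, with 1 of 3 tested higher. Of 13 erythroid markers tested 3 were called, each higher, and the 15 listed summed to 977 to 2552 CPM at P7, against 580 to 1780 CPM in adults, with overlap. Most of that sum was Hba-a1, which was not called (mean 1493 CPM at P7, against 905 CPM in adults). Neutrophil markers summed to 2.49 to 6.44 CPM at P7, against 1.09 to 1.71 CPM in adults, with Ly6g and Cxcr2 at 0 in all libraries and the 1 tested, Mmp8, not called. T and NK cell markers ran the other way, with 8.21 to 11.8 CPM at P7, against 12.2 to 21.01 CPM in adults, 1 of 5 tested lower. Monocyte markers summed to 2398 to 3754 CPM at P7, against 2973 to 6164 CPM in adults, with 1 of 4 tested higher and 1 lower. Most of that sum was Lyz2, the lower gene (mean 2765 CPM at P7, against 4363 CPM in adults). F10, the higher gene, averaged 220 CPM at P7, against 67.3 CPM in adults. The part of these cell types in the tubulin results was not tested.

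Within the beta class, Tubb1 took a larger share at P7. It held 89.7%, 88.3%, 88.4%, 87.8% and 88.2% of beta-tubulin counts in the P7 libraries, against 84.5%, 82.1%, 85.3%, 85.2% and 84.0% in the adult libraries. Each P7 share was above each adult share. The means were 88.5% ± 0.725 at P7, against 84.2% ± 1.28 in adults (SD, n = 5 each). They differed by 4.26 points (exact permutation test, two-sided p = 0.00794, 0.0159 adjusted over the 2 share tests, where 0.0079 is the smallest p that 252 splits allow). The share of Tubb2a was 6.32% to 8.35% at P7 and 11.4% to 14.7% in adults, and these ranges did not overlap. Tubb4b held 3.88% ± 0.657 and 3.09% ± 0.599, with overlap, and Tubb5 0.308% ± 0.0576 and 0.125% ± 0.0427, without (P7 and adult, SD, n = 5 each). Per kilobase, Tubb1 made up 89.9% ± 0.648 of the class at P7 and 86.0% ± 1.16 in adults. With Tubb2b, Tubb3 and Tubb4a added to the beta counts, the Tubb1 share differed by 4.47 points (two-sided exact permutation test, adjusted p = 0.0159).

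Within the alpha class, Tuba4a held most counts at both ages, and the difference in its share did not pass the test. It held 81.5%, 81.8%, 80.3%, 83.5% and 85.8% of alpha-tubulin counts at P7, against 83.9%, 85.0%, 72.5%, 81.6% and 70.4% in adults. Adult C and H were low and the other adult libraries lay within the P7 range. The means were 82.6% ± 2.12 at P7, against 78.7% ± 6.77 in adults (SD, n = 5 each). They differed by 3.87 points (exact permutation test, two-sided p = 0.325, also after adjustment over the 2 share tests). Tuba8 held 1.96% to 4.39% at P7 and 4.32% to 15.5% in adults, with 14.4% in adult C and 15.5% in adult H. Tuba1c held 2.19% to 3.31% at P7 and 0.786% to 1.56% in adults, without overlap, and Tuba1a 6.36% to 14.8% and 8.002% to 12.6%, with overlap.

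**Figure D4:**
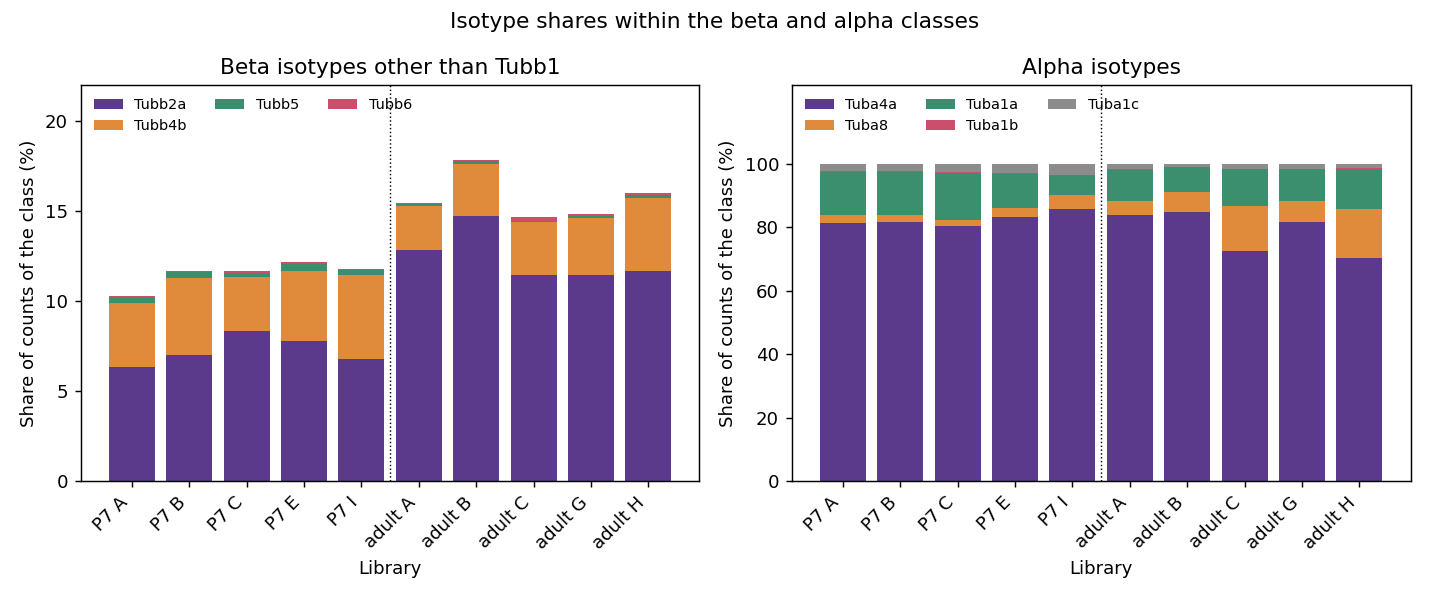
Share of class counts (percent, stacked from 0) per library, P7 libraries left of the dotted line. Left, the beta isotypes other than Tubb1, which sum to less in every P7 library than in any adult library (Tubb1 holds the rest, 87.8% to 89.7% at P7, against 82.1% to 85.3% in adults). Right, the alpha isotypes, where Tuba8 reaches 14.4% in adult C and 15.5% in adult H.

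Summed over isotypes, the alpha class was higher at P7 and the beta class was not separated. Alpha members summed to 1178 ± 132 CPM at P7, against 697 ± 134 CPM in adults, with no overlap, and beta members to 5862 ± 1131 and 5365 ± 1220 CPM, with overlap (SD, n = 5 each). Alpha counts were 14.1%, 18.4%, 14.5%, 19.8% and 18.3% of all counts of the 10 isotypes at P7, against 9.29%, 12.2%, 10.2%, 12.5% and 14.2% in adults. Only adult H reached the P7 range, just above P7 A. Per kilobase the alpha share was 10.1% ± 1.58 at P7, against 6.80% ± 1.24 in adults, also with overlap. Measured against all 10 isotypes in place of its class, Tubb1 had a difference in share of -0.96 points (two-sided exact permutation test, adjusted p = 0.54), and Tuba4a one of 4.92 points (adjusted p = 0.0159). The 10 isotypes together took 0.720% ± 0.123 of all counts at P7 and 0.593% ± 0.134 in adults.

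Genes whose levels followed Tubb1 most closely were ranked over the 10 libraries by Pearson's r of log2(CPM + 1) after the mean of each age was subtracted, among the 1927 genes that averaged 20 CPM or more. The first 5 were Nlrx1 (r = 0.97), Narf (0.95), Lgals3bp (0.95), Tpp1 (0.94) and Clptm1 (0.94). Tubb2a came at rank 7 with r = 0.93, while Tuba1a (0.51), Tuba4a (0.50) and Tubb4b (0.48) came far lower and Tuba8 was near the other end, at rank 1879 with r = -0.74. These values describe 10 libraries that share their age groups and scaling, and no p is attached to them.

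The 10 other tubulin genes listed summed to 17.5 to 33.5 CPM at P7, against 25.8 to 47.1 CPM in adults. Tubb2b, the highest of those tested, was above the members Tubb5, Tubb6, Tuba1c and Tuba1b in adults. Of 10 listed, 3 were tested, and Tubb2b fell by 0.93 ± 0.21 on the log2 scale while Tubg1, the gamma-tubulin of nucleating complexes, rose by 2.07 ± 0.49 at 1.68 ± 0.862 CPM at P7, against 0.392 ± 0.233 CPM in adults. Tuba3a, Tuba3b and Tubal3 had no count in any library. Among genes for tubulin folding, 5 of 20 tested rose and 3 fell, with a median log2 fold change of 0.20. Cct5 (1.48 ± 0.30) and Cct6a (1.32 ± 0.27), subunits of the chaperonin that folds tubulin, rose, as did the subunit gene Cct3. Mean levels at P7 were low, 6.44 CPM for Cct5 and 4.68 CPM for Cct6a. The other subunits tested, Cct2, Cct4, Cct7, Cct8 and Tcp1, were not called. Cct2, the most abundant subunit tested, had a negative value (-0.47 ± 0.19). Tbce (-1.26 ± 0.21), a cofactor of heterodimer assembly, and Vbp1 (-0.80 ± 0.17), a prefoldin subunit, fell. Each value with ± and no unit is a log2 fold change with its SE, while CPM values carry the SD. Calls are by edgeR at an adjusted p under 0.05. Over all 8198 genes tested 13.8% were called higher and 13.9% lower, the shares to set beside the counts of this and the other gene lists.

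Among enzymes that modify tubulin, 3 of 10 tested rose and 2 fell, with a median of 0.23. Ttll1, the catalytic subunit of a complex that adds glutamates to tubulin tails, rose by 0.92 ± 0.17, with 118 to 180 CPM at P7, against 59.0 to 102 CPM in adults. Agtpbp1, which removes such glutamates, rose by 0.97 ± 0.29, and Ttll12, a relative of tubulin ligases, by 2.16 ± 0.46. Svbp, the partner of the enzymes that remove the terminal tyrosine, fell by 0.76 ± 0.17.

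Microtubule-associated and severing proteins gave 3 higher and 4 lower genes of 16 tested, with a median of 0.10. The 22 listed summed to 979 to 1186 CPM at P7, against 1442 to 1799 CPM in adults, without overlap. Kif2a, a kinesin that takes microtubules apart at their ends, fell by 0.88 ± 0.13, with 509 to 678 CPM at P7, against 841 to 1167 CPM in adults. Map1a, which binds along microtubules, fell by 1.66 ± 0.24. Stmn1, which sequesters tubulin dimers, rose by 1.93 ± 0.38 at 2.89 ± 1.24 CPM at P7, against 0.750 ± 0.236 CPM in adults, and Mtus1, a microtubule-binding protein, rose by 1.32 ± 0.29. Of 7 nucleation genes tested 1 was called, Tubgcp4 of the gamma-tubulin ring complex, which fell (-1.07 ± 0.19). Of 17 motor genes tested 1 rose, the dynactin subunit gene Dctn2 (0.56 ± 0.13), and 1 fell, the dynein light chain gene Dynlt1b (-0.85 ± 0.30). The median was 0.21 for the nucleation list and -0.02 for the motor list. Nucleation genes summed to 46.3 to 67.3 CPM at P7, against 70.3 to 98.4 CPM in adults, without overlap. Motor genes summed to 902 to 929 CPM and 820 to 980 CPM, with overlap.

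Among 6 regulators and partners of Tubb1, Ranbp10, which binds beta-1 tubulin, rose by 1.26 ± 0.39 and Gata1, a transcription factor of megakaryocytes and red cells, by 0.76 ± 0.26. Fli1, another megakaryocyte factor, fell by 0.88 ± 0.19. The levels of Ranbp10, Gata1 and Fli1 each overlapped between the ages. Ranbp10 was low, with 7.30 to 17.2 CPM at P7, against 2.48 to 11.3 CPM in adults. Nfe2, which drives Tubb1 in megakaryocytes, had 532 to 694 CPM at P7, against 574 to 935 CPM in adults and did not pass the test (-0.33 ± 0.14, edgeR adjusted p = 0.10). The median of the list was -0.19.

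**Figure D5:**
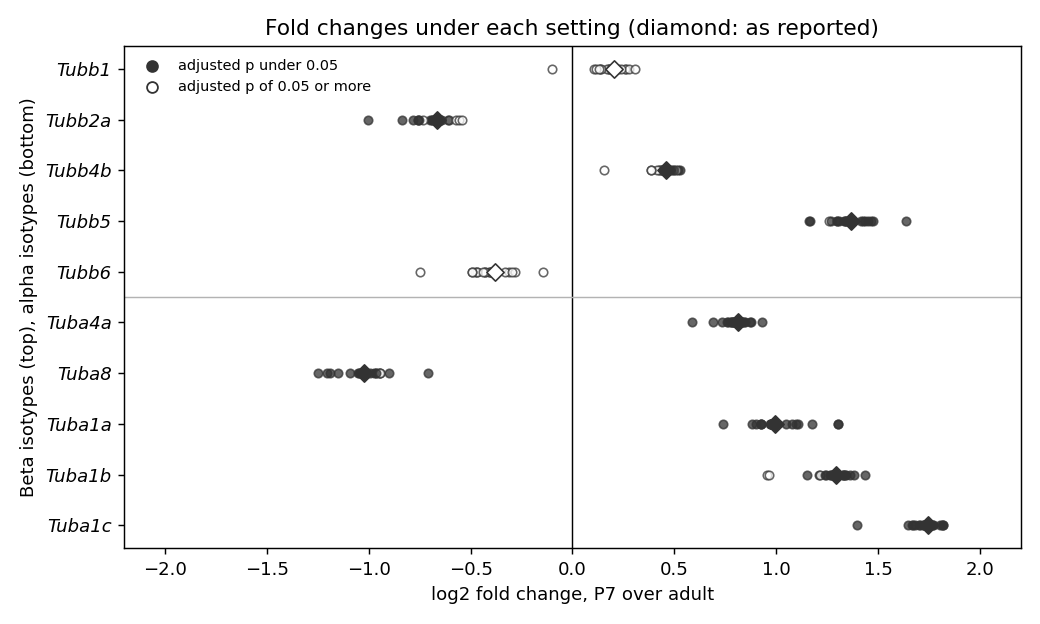
Log2 fold change, P7 over adult, of each isotype as reported (diamond) and under each alternative setting (circles), filled where the adjusted p is under 0.05. Tuba4a, Tuba1a and Tuba1c are filled throughout, while Tubb2a has 9 of 20 and Tubb4b 8 of 19 open circles.

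Calls of the isotypes differed in how they held under other settings of scaling, filter, test and library choice. Of 153 combinations of a called isotype and a setting, 129 kept the call and 24 lost it, all with the same direction. Tubb1 and Tubb6 passed the test under no setting, and Tubb1 changed sign with the GC trend removed. Tuba4a, Tuba1a and Tuba1c kept their calls throughout.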

How the data were processed

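RNA-seq of platelets was measured in 10 libraries. Per the labels' protocols, 1 ng of Trizol RNA was amplified with SMARTer chemistry, 150 pg of cDNA entered Nextera XT, and a NextSeq gave single-end reads (75 nt). The submitters' processing notes name Salmon 1.5.2, STAR 2.7.9a, fastp 0.23.1 and featureCounts of Subread 2.0.1, without their roles. The deposited values are raw counts per gene symbol, with no normalization seen in them. Genome build, strand setting and treatment of reads with several matches were not given in the sources used here. Without molecular identifiers, Wilson intervals of shares cover counting error only, while intervals of fold changes include the spread between libraries. A count of 0 would allow 0.120 to 0.154 CPM (3 counts).

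Genes passing filterByExpr (minimum count 10, minimum total 15) were TMM-scaled and tested with edgeR 4.0.16 (quasi-likelihood, age as the only term, Benjamini-Hochberg over 8198 genes, threshold 0.05) in R 4.3.3 with limma 3.58.1. Shares were compared by exact permutation over libraries. Lengths, windows and coding sequences came from GENCODE M21. Alternatives covered scaling, filters, DESeq2 1.42.0, limma-voom, a GC trend, a replicate block and each library left out. The members and lists were chosen with earlier results of these data known. All isotypes are named, as are up to 4 called genes of smallest p per list and the 5 closest to Tubb1.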

Additional observations from a re-analysis of the deposited data

Results flagged for a closer look

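In groups of 5 libraries, 40 sets of isotype levels and shares were examined for 1 library far from the others, and 2 were flagged (chance flags about 1 in 20 groups). The Tubb1 share of beta counts in P7 A was 89.7% (95% Wilson interval 89.6% to 89.9%), above a P7 median of 88.3%. The Tuba8 share of alpha counts in P7 I was 4.39% (95% Wilson interval 4.13% to 4.67%), above a P7 median of 2.54%.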

How the results depend on the processing

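For the share of Tubb1 in beta counts (4.26 points higher at P7), the difference was -0.957 points with all 10 isotypes as denominator and 4.81 points (p = 0.25 by exact permutation, the smallest 3 pairs allow) with the letters A to C as a replicate block. Leaving out single libraries gave 3.74 to 4.53 points. For Tuba4a in alpha counts (3.87 points), it was 4.92 points, past the threshold, with all 10 isotypes as denominator, and 1.81 to 5.46 points with single libraries left out. Tubb1 had a log2 fold change of -0.10 with the GC trend removed. The cause was not tested. Genes called numbered 1132 higher and 1140 lower, 569 and 646 with a filter of 10 CPM, which tests fewer genes and left Tubb6 and Tuba1b without a value, and 660 and 756 with the replicate block on 6 libraries (890 and 996 on these libraries without it). Deviations of libraries with the same letter, A to C, correlated at -0.04, 0.07 and 0.01, so these letters are taken only as names. The letters E, G, H and I each occur at a single age and could not be checked this way. Under that block 4 isotypes were called, each higher at P7, and on the same 6 libraries without it 3 were higher and 1, Tuba8, lower (edgeR adjusted p = 0.0258, and 0.0665 with the block). Tuba1b was called neither with the block (0.0986) nor without it (0.0528). The limits on depth bear most on Tuba1b, with 18 to 124 counts per library.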
